A study of Mus musculus with 12 samples.

Results

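The genes described here are 8 regulators of forebrain GABAergic (inhibitory) neurons: the distal-less homeobox genes Dlx1, Dlx2, Dlx5 and Dlx6, the long noncoding RNA gene Dlx6os1, the zinc-finger genes Sp8 and Sp9, and the homeobox gene Gsx2. They were taken by symbol from the 55335 genes of the count tables. The 8 symbols filled 9 rows, because Dlx6os1 is listed under 2 identifiers, and the second of its rows held no count in any kept nucleus.

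The nuclei came from 12 libraries of forebrain from postnatal day 1 (P1) mice of the MYT1L S710fsX strain, each library from 1 animal. MYT1L is a zinc-finger transcription factor of postmitotic neurons, and the allele is a frameshift in its gene. There were 8 wild-type (WT) libraries, 5 male and 3 female, and 4 heterozygous (Het) libraries, 3 male and 1 female, with no other treatment, so that WT animals carried no mutant copy and Het animals carried 1. The tissue is labelled forebrain, the methods also speak of prefrontal cortex, and nuclei with striatal and olfactory markers were present.

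Gsx2 is known from the progenitors of the lateral ganglionic eminence, upstream of the Dlx genes. Dlx1 and Dlx2 are known from ventral progenitors, dividing ones included, and from their young neurons, and they are known to activate Dlx5 and Dlx6 in the neurons that follow. Dlx6os1 is transcribed from the Dlx5 and Dlx6 locus and is known as a regulator of its neighbours. Sp8 is known from interneurons of the caudal ganglionic eminence (CGE) and the olfactory bulb, and Sp9 from olfactory bulb interneurons, interneurons of the medial ganglionic eminence (MGE) and the D2 projection neurons of the striatum.

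After filtering, 93172 nuclei were kept, with a median of 1872 unique molecular identifiers (UMIs, each standing for 1 captured RNA molecule). Kept nuclei ranged from 4402 to 10900 per library and their summed UMIs from 9493560 to 23420200, and no barcode was shared between libraries. The 8 genes, Myt1l and sex-linked genes were left out of the clustering, and clusters were named from other marker genes. The classes used here were MGE-like (5316 nuclei), CGE-like (1964), olfactory-like (2529), D1-like (5713) and D2-like (3202), where D1 and D2 stand for the projection neurons of the striatum with either dopamine receptor. Levels are given as CPM, a gene's UMIs over all UMIs of the class in a library, times 1000000. With the libraries pooled, Lhx6 was at 248 CPM in the MGE-like class, Prox1 at 536 in the CGE-like class and Tshz1 at 766 in the olfactory-like class. Ebf1 was at 2430 CPM in the D1-like class and Drd2 at 456 in the D2-like class. Some markers went against the names: Synpr was highest in the CGE-like class, Eya1 in the olfactory-like class, and Sncg was at 0 in the CGE-like class. The library WT M4 held only 16 D1-like and 10 D2-like nuclei, and WT M2 held 53 olfactory-like nuclei.

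The members lie in pairs or alone on 4 chromosomes (GRCm38 coordinates, as in GENCODE release M21). Dlx1 (chr2:71528113-71533981, plus strand) and Dlx2 (chr2:71543408-71546754, minus strand) converge, with their ends 9426 bases apart. Dlx6 (chr6:6863334-6868568, plus strand) and Dlx5 (chr6:6877805-6882085, minus strand) converge in the same way, with ends 9236 bases apart. Dlx6os1 (chr6:6820189-6871592, minus strand) runs across all of Dlx6 on the other strand. Dlx1 overlaps the antisense gene Dlx1as, and Sp9 overlaps Cir1, a gene on the minus strand. No source used here says whether the counting took strand into account, so reads of such partners may not be separated. Sp9 (chr2:73271925-73284706), Sp8 (chr12:118846329-118852576) and Gsx2 (chr5:75075601-75077893) lie on the plus strand.

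The 250 bases before the annotated starts of 6 of the 8 genes were in the promoter table (RefSeq, GRCm38.p6). They were searched for TAATTA, a core letter pattern of homeodomain binding, because 5 members encode homeodomain proteins and the 8 genes share part of their pattern over classes. TAATTA is its own reverse complement, and both strands were therefore searched at once. It was found in 4.84% of all 32851 promoters of this length. The members that held it were Dlx6os1, at both of its starts, and Sp8, at 1 of its 3 starts, while Dlx1, Dlx2, Sp9 and Gsx2 held none in this window. The first Dlx6os1 start held 2 copies, and 0.444% of all promoters hold 2 or more. The sequences of both Dlx6os1 starts, of the Sp8 start and, for contrast, of Dlx1 are shown 5′ to 3′ on the strand of the gene, with TAATTA in capitals. Each of these windows lies inside its gene by the GENCODE positions above, as the RefSeq starts used lie downstream of the GENCODE ones. A match is a description of letters only, and AT-rich sequence holds more of them: the GC content was 33.2% and 34.0% for Dlx6os1, 50.0% for Sp8 and 68.0% for Dlx1, against a median of 52.4% over all promoters.
Dlx6os1, chr6:6869534-6869783, minus strand: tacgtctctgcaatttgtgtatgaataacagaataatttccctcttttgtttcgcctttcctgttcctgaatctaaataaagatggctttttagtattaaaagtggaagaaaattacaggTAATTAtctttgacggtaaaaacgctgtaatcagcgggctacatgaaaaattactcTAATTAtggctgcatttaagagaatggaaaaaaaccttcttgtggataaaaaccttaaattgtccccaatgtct
Dlx6os1, chr6:6861684-6861933, minus strand: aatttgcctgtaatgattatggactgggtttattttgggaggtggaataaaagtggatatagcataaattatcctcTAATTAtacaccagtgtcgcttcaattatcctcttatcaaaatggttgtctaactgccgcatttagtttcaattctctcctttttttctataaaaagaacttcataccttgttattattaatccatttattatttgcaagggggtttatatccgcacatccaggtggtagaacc
Sp8, chr12:118847309-118847558, plus strand: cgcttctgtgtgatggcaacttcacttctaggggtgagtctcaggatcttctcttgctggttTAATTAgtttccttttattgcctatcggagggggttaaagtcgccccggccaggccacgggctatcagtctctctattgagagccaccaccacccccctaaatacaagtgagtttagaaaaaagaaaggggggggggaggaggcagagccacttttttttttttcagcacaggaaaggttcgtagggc
Dlx1, chr2:71529195-71529444, plus strand: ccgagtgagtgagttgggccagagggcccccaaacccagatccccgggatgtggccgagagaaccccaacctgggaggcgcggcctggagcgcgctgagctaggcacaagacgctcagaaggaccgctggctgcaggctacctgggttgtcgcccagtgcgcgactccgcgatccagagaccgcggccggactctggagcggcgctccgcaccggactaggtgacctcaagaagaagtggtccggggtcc

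The members followed different orders over the inhibitory classes. Dlx1 and Dlx6os1 were highest in the CGE-like class, Dlx2, Dlx5, Dlx6 and Sp8 in the olfactory-like class and Sp9 in the D2-like class, while Gsx2 was almost absent from all 5. For Dlx2, Dlx5, Dlx6, Sp8 and Sp9 the top class was not settled: it exceeded the next in only 5 to 7 of 12 libraries, and on a log2 scale Dlx2 and Dlx5 were highest in the CGE-like and Sp9 in the olfactory-like class. With nuclei assigned by a gate on marker UMIs in place of clusters, Dlx2 and Sp8 were highest in the CGE-like and Dlx6 in the D2-like class. The gate also gave lower olfactory-like means, at 586 CPM for Dlx6os1, 33.2 for Sp9, 18.2 for Dlx2, 17.6 for Sp8 and 9.19 for Dlx5. It gave 6.81 CPM of Dlx5 in the CGE-like, 39.3 CPM of Dlx1 in the D2-like, and 3.09 and 3.27 CPM of Sp8 in the MGE-like and D2-like classes. Levels below are means of CPM ± SD over the 12 libraries, and levels of different genes are not compared, since transcripts of different length give different counts. Together the 5 classes held 50.3% of the UMIs of Dlx1, 67.1% of those of Dlx6os1, 41.9% of those of Sp8 and 57.7% of those of Sp9.

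**Figure D1:**
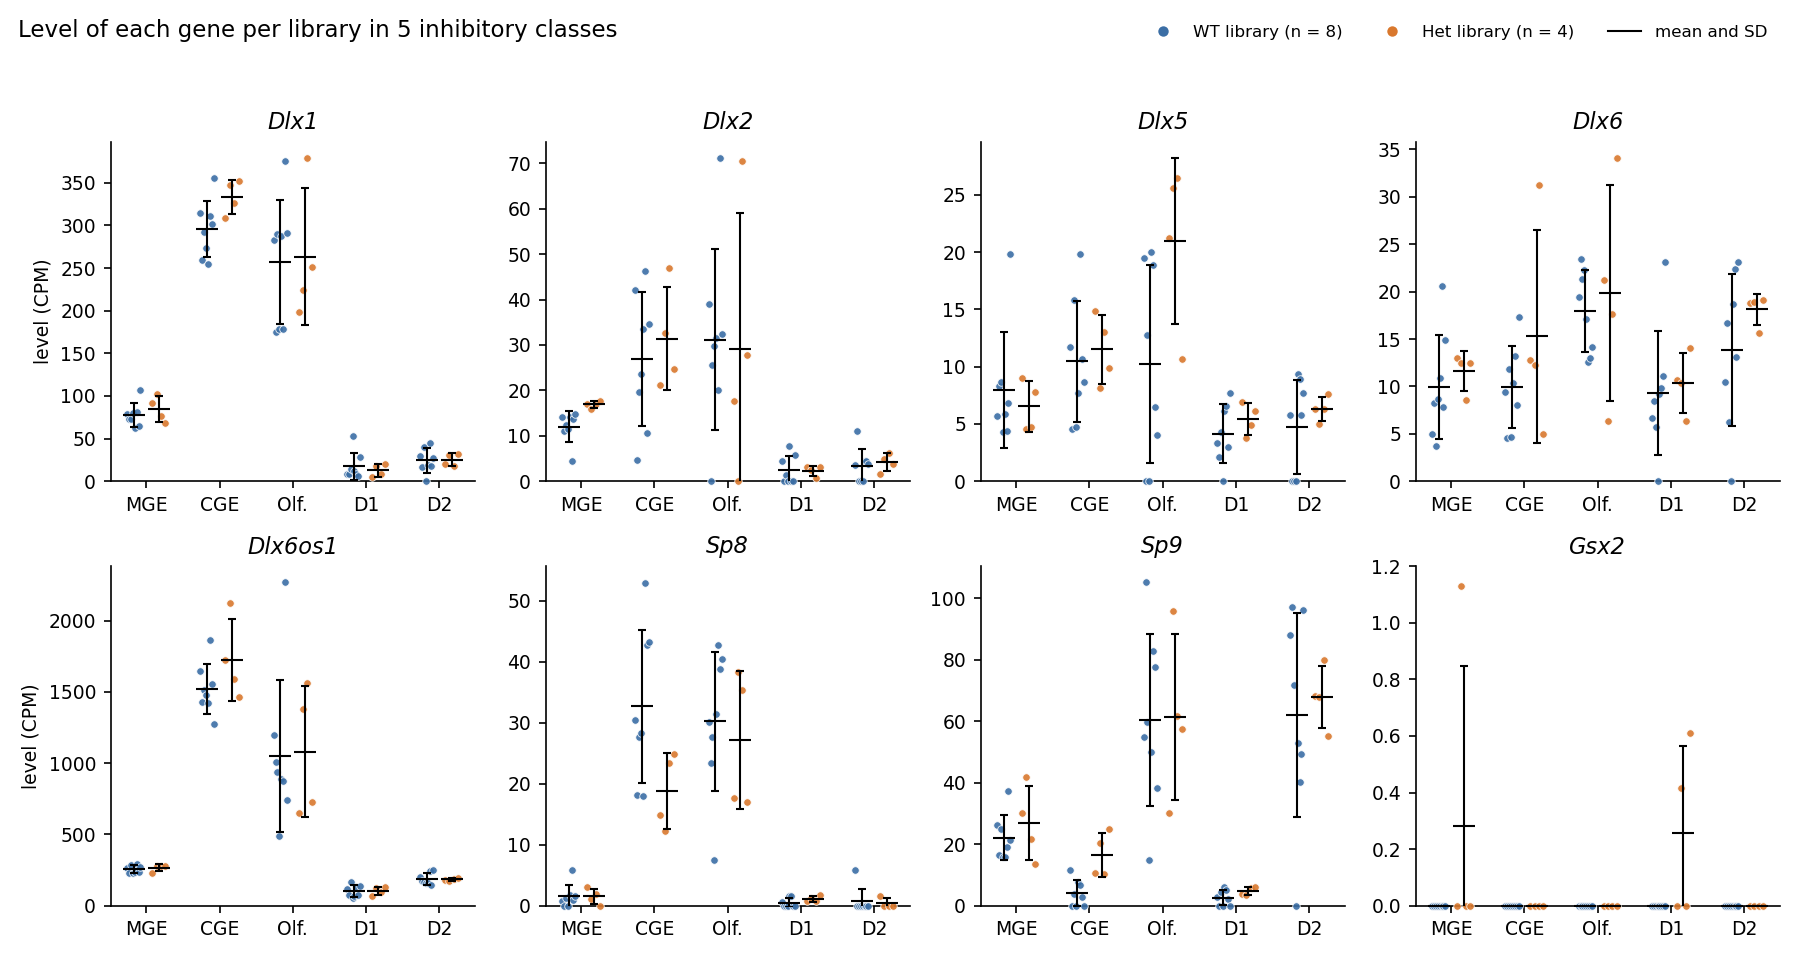
Level of each member (CPM, linear axes from 0, a scale for each gene) in the 5 inhibitory classes; points are libraries (8 WT in blue, 4 Het in orange) and black bars are the mean and SD of each genotype. Dlx1 and Dlx6os1 stood highest in the CGE-like class, Sp8 in the CGE-like and olfactory-like classes and Sp9 in the olfactory-like and D2-like classes.

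Gsx2, the progenitor factor, gave 3 UMIs in the 5 classes together. Of these, 1 was in an MGE-like nucleus and 2 in D1-like nuclei, all in Het libraries. It had 0 UMIs in 1964 CGE-like nuclei, which allows a share of nuclei with a UMI of up to 0.153%, in 2529 olfactory-like nuclei (up to 0.119%) and in 3202 D2-like nuclei (up to 0.0937%). These limits cover counting error only. Its place in these data was the cycling progenitor-like class, marked by Top2a and Mki67, which held 38.3% of its 23.5 UMIs at 2.75 ± 3.00 CPM. The genotype of so few molecules carries no comparison.

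Dlx1, which starts the Dlx cascade together with Dlx2, averaged 308 ± 33.9 CPM in the CGE-like class, with libraries from 255 to 355. In the olfactory-like class it averaged 259 ± 71.6 CPM (175 to 379). These neighbours overlapped, with the CGE-like level higher in 9 of 12 libraries. In the MGE-like class it averaged 79.9 ± 14.1 CPM (61.9 to 107), which was 3.25-fold below the olfactory-like level, and the 2 classes did not overlap in any library. The D2-like level of 24.6 ± 12.1 CPM lay a further 3.25-fold lower and again below every MGE-like library. The D1-like mean of 15.9 ± 13.5 CPM was lower than the D2-like level in 10 of 12 libraries and included 52.9 CPM in WT M4 from 2 UMIs; without that library it was 12.5 CPM.

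A UMI can also come from free RNA, so the share of nuclei with a UMI was set against cells that should not express the genes. For Dlx1 it was 37.9% in CGE-like, 31.2% in olfactory-like, 13.8% in MGE-like, 4.15% in D2-like and 2.38% in D1-like nuclei, against 0.819% in excitatory neurons and 2.57% in microglia-like nuclei. The median UMIs of these classes were 1574, 1352, 1800, 1618.5, 2147, 1953 and 1228. At a common depth of 800 UMIs, the expected share was 22.1%, 19.7%, 6.31%, 2.05% and 0.947% in the inhibitory classes in the same order, and 0.348% and 1.00% in excitatory and microglia-like nuclei. The D1-like share of Dlx1 was about that of microglia-like nuclei (16 of 623 nuclei) and above that of excitatory neurons, so for the class as a whole it could not be told apart from background, and its clusters differed as given below. The microglia-like nuclei are a loose reference. Their median doublet score (share of simulated doublets among the neighbours of a nucleus) was 0.72, against 0.14 in the D1-like cluster 4. They also held 79.2 CPM of the GABA synthesis gene Gad2. Whether their UMIs came from free RNA or from doublets was not tested, so calls of background that rest on them are uncertain.

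Dlx2, the partner of Dlx1 on chromosome 2, was sparser. It averaged 30.4 ± 22.4 CPM in the olfactory-like class (0 to 71.2) and 28.4 ± 13.4 CPM in the CGE-like class (4.56 to 46.9), with no order between them (5 of 12 libraries higher in the olfactory-like class). It averaged 13.7 ± 3.63 CPM in the MGE-like class, below the CGE-like level in 10 of 12 libraries, and 3.66 and 2.39 CPM in the D2-like and D1-like classes. The shares of D1-like and D2-like nuclei with a Dlx2 UMI, 0.578% and 0.75%, lay between the 0.246% of excitatory neurons and the 0.963% of microglia-like nuclei (6 of 623), and could not be told apart from background. Both genes had their highest class mean in cycling progenitor-like nuclei, at 336 ± 86.0 CPM for Dlx1 and 40.5 CPM for Dlx2.

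Dlx6os1 gave the most UMIs of the 8 genes, 22257 in all kept nuclei. Its level was 1590 ± 227 CPM in the CGE-like class (1273 to 2122) and 1060 ± 489 CPM in the olfactory-like class (490 to 2273), higher in the CGE-like class in 11 of 12 libraries. In the MGE-like class it was 259 ± 24.9 CPM (226 to 292), which was 4.09-fold below the olfactory-like level with no overlap of libraries. The D2-like level of 186 ± 32.8 CPM was lower than the MGE-like level in all 12 libraries, by 1.39-fold in the mean, although the ranges overlapped. The D1-like level of 103 ± 35.9 CPM was below the D2-like level in 11 of 12 libraries, by 1.81-fold. A Dlx6os1 UMI was seen in 83.8% of CGE-like, 56.4% of olfactory-like, 33.9% of MGE-like, 24.1% of D2-like and 17.4% of D1-like nuclei, against 1.62% of excitatory and 6.90% of microglia-like nuclei. All 5 shares stayed above the microglia-like share at a common depth of 800 UMIs, where the D1-like share was 8.18% and the microglia-like share 4.01%. The microglia-like level was 81.9 CPM, and the D1-like class lay above it mainly through 1 cluster, described below.

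Dlx5 and Dlx6, the protein-coding neighbours of Dlx6os1, did not show its steep order. Dlx5 averaged 13.8 ± 9.49 CPM in the olfactory-like class, 10.8 ± 4.55 in the CGE-like class, 7.50 in the MGE-like class, 5.23 in the D2-like class and 4.57 in the D1-like class. Of the steps between these neighbours, the CGE-like level exceeded the MGE-like level in 10 of 12 libraries and no other step held in more than 7. A Dlx5 UMI was found in 1.07% of D1-like and 1.00% of D2-like nuclei, against 0.0948% of excitatory and 0.482% of microglia-like nuclei (3 of 623). Dlx6 averaged 18.6 ± 6.96 CPM in the olfactory-like class, 15.3 ± 6.80 in the D2-like class, 11.7 in the CGE-like class, 10.5 in the MGE-like class and 9.64 in the D1-like class. Its D2-like level exceeded its CGE-like level in 9 of 12 libraries, a different order from that of Dlx6os1. A Dlx6 UMI was found in 2.31% of D1-like nuclei, above the 0.116% of excitatory and 0.161% of microglia-like nuclei, so that Dlx6 stood above background in each of the 5 classes.

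Sp8 separated the CGE-like from the MGE-like class. It averaged 29.2 ± 10.9 CPM in the olfactory-like class (7.43 to 42.7) and 28.1 ± 12.5 CPM in the CGE-like class (12.2 to 53.0), with each the higher in 6 of 12 libraries. The MGE-like level was 1.51 CPM, with all CGE-like libraries above all MGE-like libraries. A UMI of Sp8 was found in 4.71% of olfactory-like and 4.38% of CGE-like nuclei but in 0.282% of MGE-like, 0.193% of D1-like and 0.156% of D2-like nuclei. The excitatory share was 0.155%, the microglia-like share 0.161% (1 of 623 nuclei) and the astroglia-like share 0.688%, so Sp8 in the D1-like and D2-like classes was at about background. The MGE-like share was above the first 2 of these and below the third, and at 800 UMIs it was 0.0966% against 0.0566% in microglia-like nuclei, so it could not be told apart from background.

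Sp9, the close relative of Sp8, separated the 2 classes of striatal projection neurons. It averaged 64.0 ± 27.2 CPM in the D2-like class and 3.27 CPM in the D1-like class, and was higher in the D2-like class in 11 of 12 libraries. The exception was WT M4, with no Sp9 UMI in its 10 D2-like nuclei. In the olfactory-like class it averaged 60.8 ± 26.5 CPM, the higher of the pair in 6 of 12 libraries when set against the D2-like class. The MGE-like level of 23.7 ± 8.88 CPM was 2.56-fold below the olfactory-like level and 2.87-fold above the CGE-like level of 8.25 ± 7.98 CPM, each in 11 of 12 libraries. Sp9 was thus lower in the CGE-like than in the MGE-like class, whereas Sp8 was lower in the MGE-like than in the CGE-like class. A UMI of Sp9 was found in 11.6% of D2-like, 8.30% of olfactory-like, 4.51% of MGE-like and 1.48% of CGE-like nuclei, and in 0.840% of D1-like nuclei. The D1-like share lay between the 0.203% of excitatory neurons and the 0.963% of microglia-like nuclei, and at 800 UMIs it was 0.310% against 0.301% in microglia-like nuclei, so it could not be told apart from background.

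**Figure D2:**
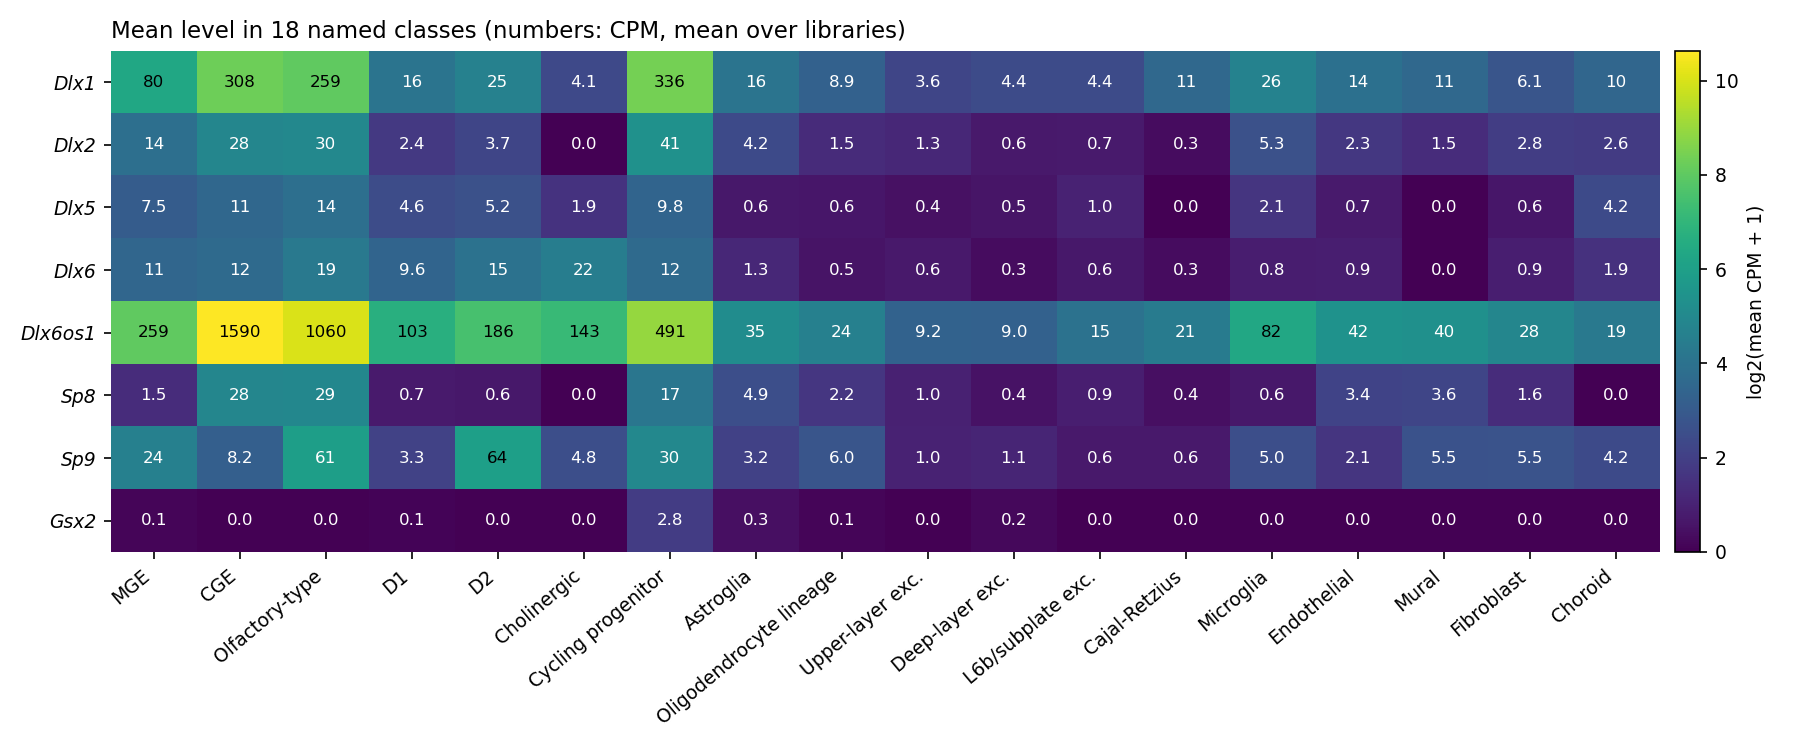
Mean level of each member over libraries in the 18 named classes of nuclei; printed values are CPM and the colour is log2(mean CPM + 1), so rows differ in scale by gene. Dlx1, Dlx2 and Gsx2 had their highest mean in the cycling progenitor-like class, and Dlx6os1 ranged from 1590 CPM in the CGE-like class to 9.0 CPM in a deep-layer excitatory class.

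Across the 18 named classes, the genes whose log2 levels were most like a member's were often its genomic neighbours. The values that follow are Pearson correlations over 18 class means, given as a description, and the points share libraries and depth. Dlx1 was most like Dlx2 (0.955), then its antisense gene Dlx1as (0.941) and Dlx6os2 (0.916), and Dlx2 was most like Dlx1, Dlx1as (0.926) and Sox1ot (0.890). Dlx6os1 was most like Dlx6os2 (0.947) and the GABA synthesis enzymes Gad1 (0.933) and Gad2 (0.921). Dlx6 was most like Gad2 (0.890), Dlx6os1 (0.841) and Gm48692 (0.839). Dlx5 was most like Dlx6os1 (0.859), Dlx6 (0.855) and B020031H02Rik (0.855). Neighbours that overlap on opposite strands may share reads. Few counts of these genes had been divided between genes: 0 of 757 single-nucleus values for Dlx6, 3 of 4741 for Dlx1 and 92 of 10442 for Dlx6os1. Whether undivided reads came from the other strand was not tested. Sp9 was most like Gad1 (0.821), Gad2 (0.803) and Xpo7 (0.779), and Sp8 was most like Gm49980 (0.878), Dlx1 (0.817) and Dlx2 (0.816). Over the 52 clusters, Sp8 and Sp9 correlated at 0.444, the 2 Dlx genes of chromosome 2 at 0.886 and Dlx5 with Dlx6 at 0.806. The genes most like Gsx2, Cenpc1 (0.916), Ndc1 (0.852) and Gm550 (0.843), rest on its few UMIs.

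The classes were not uniform for these genes. The MGE-like class was made of 4 clusters: cluster 14 (2611 nuclei, led by Nxph2, Nxph1 and Erbb4), cluster 19 (2164, led by Dgkg, Grik1 and Elfn1), cluster 44 (336, led by Nos1, Tacr1 and Npy) and cluster 47 (205, led by Sfta3-ps, St18 and Lhx8). The clusters were drawn without the 8 genes, but genes correlated with them were used, so the differences are given as description. Sp9 averaged 30.5 ± 13.3 CPM in cluster 14, 5.64 ± 3.83 in cluster 19, 82.3 ± 40.4 in cluster 44 and 78.2 ± 66.9 in cluster 47, the last over the 8 libraries with enough nuclei. It was lower in cluster 19 than in clusters 14 and 44 in all 12 libraries. Dlx6os1 took another order, with 671 ± 266 CPM in cluster 47, 296 in cluster 14, 217 in cluster 19 and 104 ± 67.1 in cluster 44. It was highest in cluster 47 in 8 of 8 libraries and lower in cluster 44 than in cluster 14 in 12 of 12. Dlx1 was nearly level over clusters 14, 19 and 44 (85.1, 81.4 and 75.2 CPM) and stood at 37.4 CPM in cluster 47.

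The D1-like class also held a cluster that stood apart. Cluster 37 (648 nuclei, led by Isl1, Ntn1 and Dchs2) had 423 ± 147 CPM of Dlx6os1 over 9 libraries, against 65.8 ± 14.4 in cluster 4 (4121 nuclei, led by Ebf1 and Ikzf1) and 88.6 ± 26.8 in cluster 31 (944 nuclei, led by Strip2, Lypd1 and Tac1). The level of cluster 4, the majority, was below the 81.9 CPM of microglia-like nuclei and above the level of excitatory neurons. The lowest library of cluster 37, at 203 CPM, lay above the highest of cluster 4, at 85.9 CPM, over those 9 libraries. Dlx1 was likewise higher in cluster 37, at 34.3 CPM against 11.1 in cluster 4, in 9 of 9 libraries. The D1-like means of both genes were therefore mixtures of a low majority and a higher minority.

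The olfactory-like class was 1 cluster at the resolution used and split into 2 main parts at a finer one. The part led by Foxp2 (1845 nuclei) had 1216 ± 476 CPM of Dlx6os1 over 12 libraries, and the part led by Cpa6 (677 nuclei) had 469 ± 80.3 CPM over 8 libraries, lower in 8 of 8. Dlx1 averaged 291 and 176 CPM, Sp8 34.4 and 13.7 CPM, and Sp9 67.4 and 37.2 CPM in the same order. The library with the highest Dlx6os1 level in the whole class, WT F2 (2273 CPM), had the smallest share of the Cpa6-led part (2.54% of its olfactory-like nuclei), and the library with the lowest level, WT M4 (490 CPM), had the largest (51.4%). Within the Foxp2-led part alone the spread remained, with 574 CPM in WT M4 and 2371 CPM in WT F2.

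**Figure D3:**
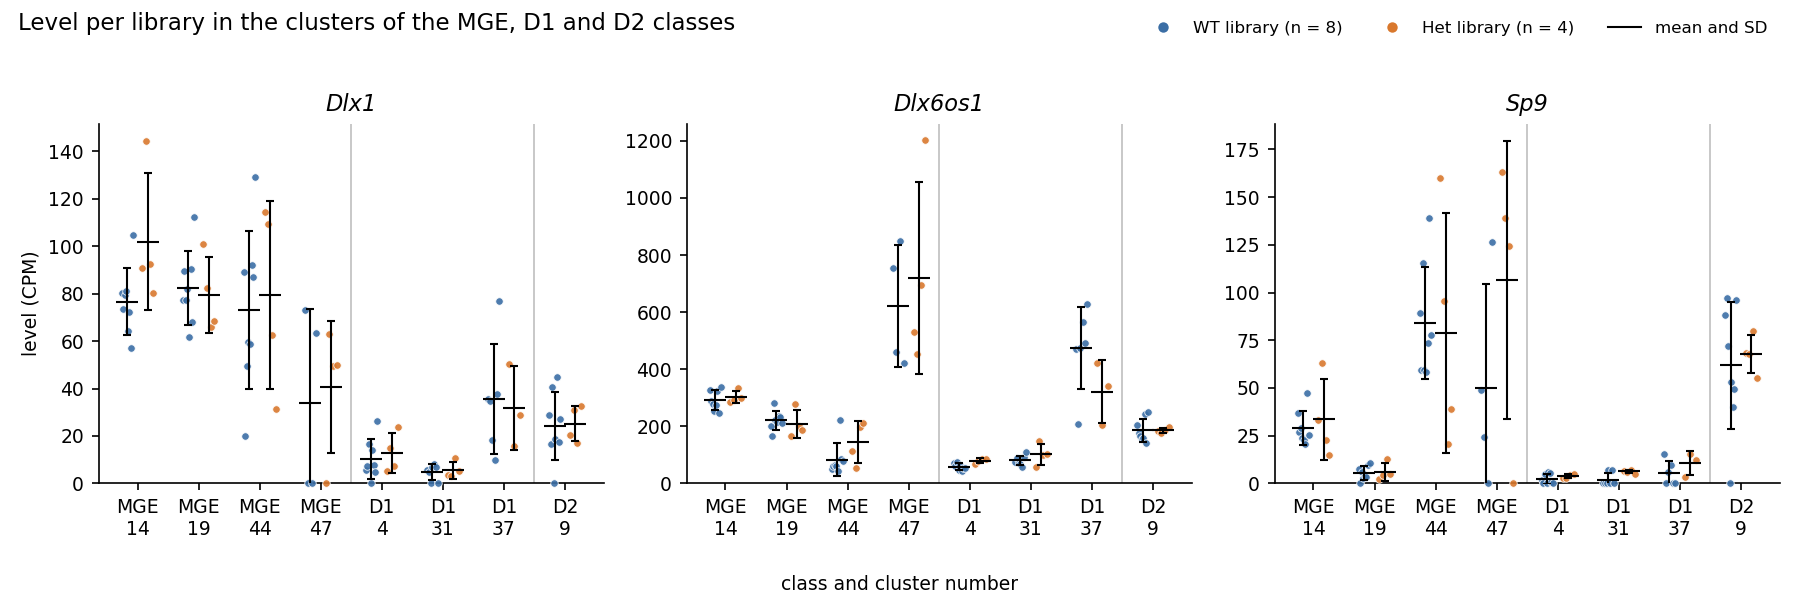
Levels of Dlx1, Dlx6os1 and Sp9 (CPM, linear axes from 0) in the clusters that make up the MGE-like, D1-like and D2-like classes; points are libraries with enough nuclei (WT blue, Het orange) and black bars are the mean and SD of each genotype. Sp9 was lowest in cluster 19 among the MGE-like clusters, and Dlx6os1 was highest in cluster 47 of the MGE-like and cluster 37 of the D1-like class.

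Outside the 5 classes the members were low in excitatory neurons but not in every other group. In excitatory neurons Dlx1 averaged 3.80 CPM and Dlx6os1 9.18 CPM. Cholinergic-like nuclei had 21.6 CPM of Dlx6, from 8 UMIs in 7 libraries, and 143 CPM of Dlx6os1. Cycling progenitor-like nuclei had 17.0 CPM of Sp8, 30.1 CPM of Sp9 and 491 CPM of Dlx6os1. An unnamed cluster led by Egfr and Chd7 had 200 CPM of Dlx1, and an unnamed cluster of 2972 nuclei led by Snhg11 had 196 CPM of Dlx6os1. Pooled over libraries, the Snhg11-led cluster also had 90.0 CPM of Dlx1, 26.3 CPM of Sp9 and 16.4 CPM of Dlx6. The Snhg11-led cluster had 208 CPM of Gad1, within the range of the named inhibitory clusters, and 380 CPM of Gad2, against 388 CPM in the lowest of them, and was not part of the pooled inhibitory nuclei.

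The comparison of Het with WT asks whether these regulators change when 1 copy of Myt1l is lost. No difference in a member passed the test in any of the 5 classes. UMIs were summed per library and class and tested with edgeR's quasi-likelihood test, and a call needed a Benjamini-Hochberg adjusted p under 0.05 over all genes of the class and a log2 difference of at least 0.2. Of the 40 combinations of a member and a class, 18 had enough counts, and edgeR called 0 of these. Of all 34276 gene and class combinations tested, 0.0321% were called. DESeq2 also called 0 members, where it called 0.0817% of all combinations, and edgeR with no filter on low counts called 0 members and 0.127% of all combinations. None of the 18 had an unadjusted p under 0.05, against 5.6% of all combinations, and 10 of the 18 were higher in Het. The p-values measure the spread between animals within 1 P1 cohort.

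**Figure D4:**
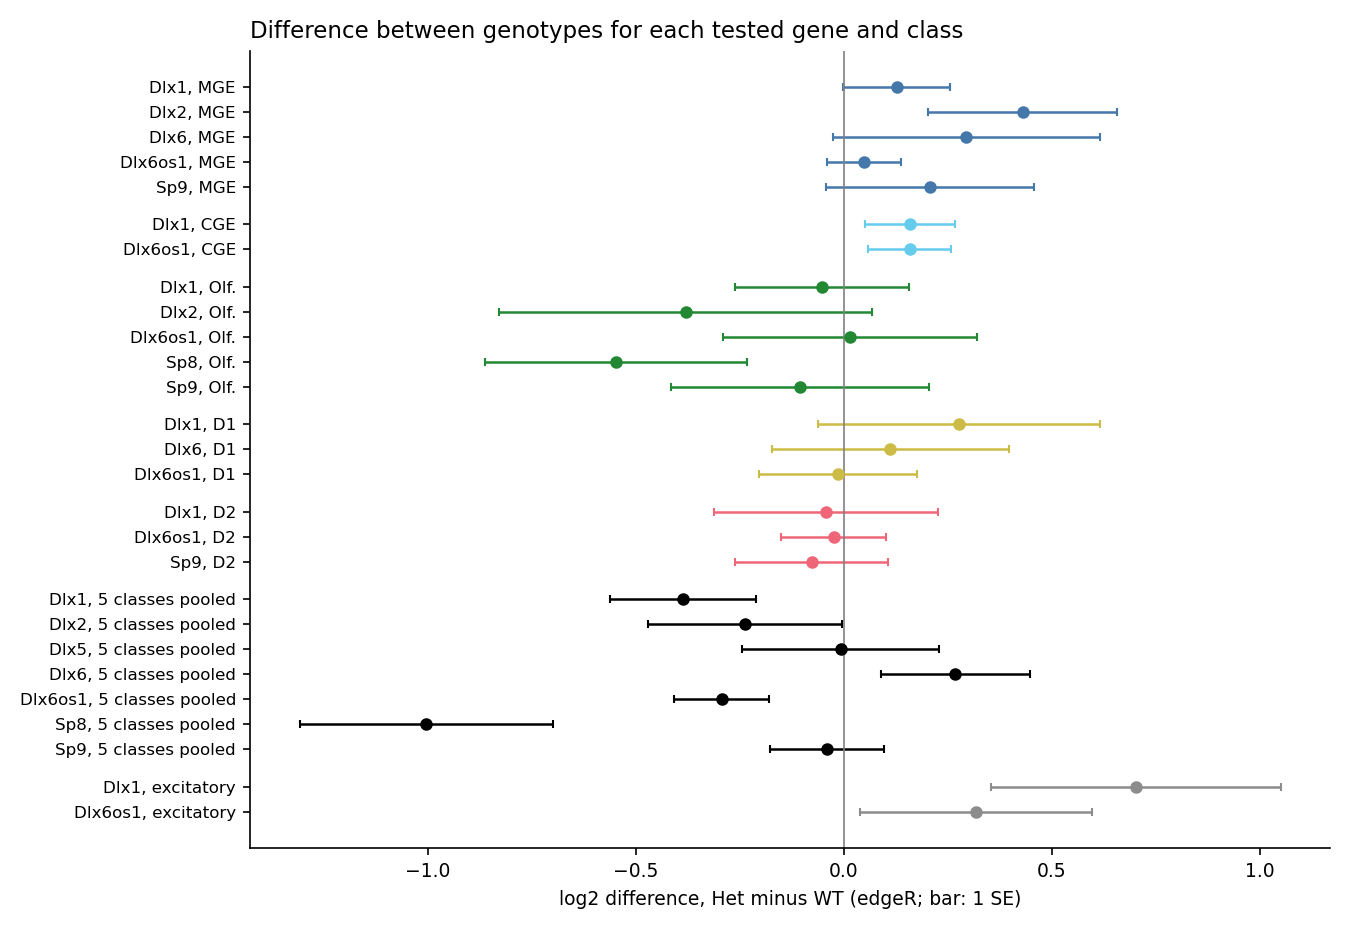
Log2 difference, Het minus WT, of each member with enough counts in each class, in the 5 classes pooled and in excitatory neurons; points are edgeR estimates and bars are ± 1 SE. In the 5 classes the values lie on both sides of 0, and with the classes pooled Sp8, Dlx1 and Dlx6os1 lie below 0.

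Dlx1 in the CGE-like class was 295 ± 32.9 CPM in WT (255 lowest, 297 median, 355 highest) and 308, 347, 326 and 352 CPM in the Het libraries. All Het values lay above the WT mean but within the WT range, and the log2 difference was 0.16 ± 0.107 (SE, edgeR adjusted p = 0.918). Dlx6os1 there was 1522 CPM in WT (1273 lowest, 1495 median, 1861 highest) and 1722, 2122, 1590 and 1463 CPM in Het, a log2 difference of 0.16 ± 0.0986 (edgeR adjusted p = 0.918). The Het and WT libraries overlapped for both genes. The background of this class was 0.0% of genes called.

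Of the 18 combinations, Dlx2 in the MGE-like class had the smallest p. It was 12.04 ± 3.37 CPM in WT (4.41 lowest, 13.1 median, 14.9 highest, 89 UMIs in all) and 17.1, 15.8, 17.1 and 17.7 CPM in Het (66 UMIs). The 4 Het libraries lay above all 8 WT libraries, an arrangement seen in 0.326% of the genes tested in this class. The log2 difference was 0.43 ± 0.227 (edgeR adjusted p = 0.690) and did not pass the test, in a class where 0.0466% of genes were called. In the same nuclei Dlx1 differed by 0.13 ± 0.128, Dlx6os1 by 0.05 ± 0.0897, Dlx6 by 0.29 ± 0.320 and Sp9 by 0.21 ± 0.251 on the log2 scale. Beside these values, the summed D1 marker list was 34.9 CPM (24.8 to 42.2) in WT and 59.0 CPM (31.4 to 84.3) in Het MGE-like nuclei, with 5 of its 7 genes higher in Het and none at 0. Ebf1 alone made up 8.99 CPM of this sum in WT and 28.0 CPM in Het. The olfactory marker list was 443 ± 50.1 CPM in WT and 570 ± 55.0 CPM in Het, with 9 of 9 genes higher. Some lists of other cell types were also higher in Het in these nuclei. The excitatory neuron list was 21.7 CPM (10.1 to 40.0) in WT and 43.2 CPM (26.1 to 79.7) in Het with 4 of 4 genes higher. The astroglia list was 83.0 and 116 CPM with 6 of 9, and the endothelial list 11.6 and 18.6 CPM with 5 of 6. Other sums were lower in Het: the microglia list was 8.16 and 7.22 CPM with 2 of 6 genes higher, and the D2 list 1864 and 1775 CPM with 4 of 7. The upper-layer list was 1981 and 1938 CPM with 6 of 7 genes higher, and the class's own MGE list 13616 and 13073 CPM with 5 of 9. Cluster 47, whose name was weak, was 2.90 ± 1.78% of MGE-like nuclei in WT and 5.69 ± 1.73% in Het. The part of these in the members' values was not tested.

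In the olfactory-like class Sp8 was 30.2 ± 11.4 CPM in WT (7.43 lowest, 30.8 median, 42.7 highest) and 17.7, 38.4, 35.3 and 17.1 CPM in Het. The groups overlapped, with 2 Het libraries above the WT mean, and the log2 difference was -0.55 ± 0.315 (edgeR adjusted p = 0.9999) with 0.0% of the class's genes called. Dlx2 differed there by -0.38 ± 0.449, Sp9 by -0.11, Dlx1 by -0.05 and Dlx6os1 by 0.01 ± 0.305. In that class the D1 list was 54.9 CPM in WT and 86.6 in Het with 6 of 7 genes higher, and the deep-layer list 3089 and 3803 CPM with 7 of 7. The MGE list was 2232 and 1700 CPM with 5 of 9, and the class's own olfactory list 6405 and 5830 CPM with 3 of 9. The part of these in the members' values was not tested. In the D2-like class (0.0834% called) Sp9 differed by -0.08 ± 0.184, Dlx1 by -0.04 and Dlx6os1 by -0.03 ± 0.126. The mean of Sp9 ran the other way, at 62.0 CPM in WT, where WT M4 was at 0, and 67.8 CPM in Het, and the fit without WT M4 gave -0.09. In the D1-like class (0.022% called) Dlx1 differed by 0.28 ± 0.339, Dlx6 by 0.11 and Dlx6os1 by -0.01 ± 0.191. The mean of Dlx1 ran against its fitted difference, at 17.5 CPM in WT, where WT M4 was at 52.9 from 2 UMIs, and 12.7 CPM in Het, while over summed UMIs it was 10.9 and 13.7 CPM. The WT and Het libraries overlapped for each of these members. In D1-like nuclei the D2 list was 118 CPM in WT and 157 in Het with 7 of 7 genes higher, the MGE list 122 and 158 CPM with 8 of 9, and the astroglia list 54.4 and 79.7 CPM with 7 of 9. The class's own D1 list was 2541 and 2801 CPM with 3 of 7, and the Cajal-Retzius list 1220 and 1157 CPM with 2 of 5. The part of these in the members' values was not tested.

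The remaining 22 combinations had too few counts for the filter. Gsx2 in the CGE-like, olfactory-like and D2-like classes had no UMI and could not be tested, and none of the others was called when the filter was dropped. Sp8 in the CGE-like class was 32.7 ± 12.5 CPM in WT (18.05 lowest, 29.4 median, 53.0 highest) and 14.9, 12.2, 23.5 and 24.8 CPM in Het, from 66 and 24 UMIs. Every Het value lay below the WT median, and without the filter the log2 difference was -0.75 ± 0.354 (edgeR adjusted p = 0.685). Sp9 in the CGE-like class was 4.09 ± 4.31 CPM in WT (11 UMIs) and 10.6, 20.4, 10.4 and 24.8 CPM in Het (19 UMIs), and without the filter the log2 difference was 1.43 ± 0.572 (edgeR adjusted p = 0.685). In that class the D1 marker list was 29.2 CPM (13.7 to 44.5) in WT and 72.4 CPM (35.8 to 104.12) in Het, with 4 of 7 genes higher and Tac1 at 0. In WT and Het, the excitatory neuron list was 30.0 and 45.1 CPM with 4 of 4 genes higher in Het, the upper-layer list 907 and 1050 CPM and the deep-layer list 507 and 601 CPM, each with 7 of 7 genes higher, and the mural list 8.16 and 20.5 CPM with 4 of 6 genes higher and Vtn at 0. The D2 list was 840 and 701 CPM, the olfactory list 1189 and 1121 CPM, the MGE list 969 and 970 CPM, and the class's own CGE list 39974 and 36867 CPM. The part of these in the members' values was not tested. Dlx5 in the olfactory-like class was 10.2 CPM in WT and 21 CPM in Het, from 41.5 and 24 UMIs, and without the filter the log2 difference was 0.40 ± 0.420 (edgeR adjusted p = 0.794). These means differed by more than the fit, and every library counted equally in them.

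When the inhibitory nuclei were pooled (18724 nuclei in the 5 classes), 7 members had enough counts and 3 of them had an unadjusted p under 0.05, as 8.09% of all 13169 genes did. None passed the adjustment in edgeR, which called 0.0% of genes. DESeq2 called 0 members and 0.0911% of genes, but it gave no adjusted p for Sp8, so its result does not cover that gene. Sp8 was 8.55 ± 3.86 CPM in WT (2.57 lowest, 7.78 median, 14.6 highest) and 5.53, 2.77, 4.42 and 4.22 CPM in Het, a log2 difference of -1.0 ± 0.305 (edgeR adjusted p = 0.484). With no filter on low counts the edgeR adjusted p of Sp8 was 0.0267, past the threshold, as it was for 0.412% of genes. Dlx6os1 was 429 ± 65.7 CPM in WT (300 lowest, 444 median, 495 highest) and 406, 312, 368 and 320 CPM in Het, a log2 difference of -0.29 ± 0.114 (edgeR adjusted p = 0.525). Dlx1 was 101 ± 27.6 CPM in WT (59.6 lowest, 103 median, 136 highest) and 92.6, 60.3, 75.0 and 80.1 CPM in Het, a log2 difference of -0.39 ± 0.176 (edgeR adjusted p = 0.599). For all 3 genes the 4 Het libraries lay below the WT mean, within the WT range. Dlx6 differed by 0.27 ± 0.179, Dlx2 by -0.24, Sp9 by -0.04 and Dlx5 by -0.01.

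The makeup of the pooled nuclei was not the same in the libraries of both genotypes, although the ranges overlapped for every class and the shares were not tested. Of the nuclei in the 5 classes, the MGE-like class was 34.2 ± 10.7% in WT and 24.1 ± 4.03% in Het, the CGE-like class 11.9 ± 5.04% and 9.77 ± 3.81%, and the olfactory-like class 16.9 ± 8.57% and 9.45 ± 5.66%. The D1-like class was 23.5 ± 10.3% in WT and 37.1 ± 7.61% in Het, and the D2-like class 13.6 ± 5.96% and 19.7 ± 3.31%. Dlx1, Dlx6os1 and Sp8 were low in the D1-like and D2-like classes, whose mean share was the larger one in Het. The part of makeup in the pooled differences was not tested. With each of the 5 classes weighted equally in every library, a comparison chosen after seeing the data, Dlx1 was 134 CPM in WT and 144 in Het, and Dlx6os1 624 and 672 CPM. Their log2 ratios of means moved from -0.39 and -0.29 to 0.10 and 0.11. Sp8 was 13.1 CPM in WT and 9.80 in Het, a log2 ratio of -0.42 in place of -1.01. In WT M4 these weights gave the few D1-like and D2-like nuclei the same weight as the larger classes.

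**Figure D5:**
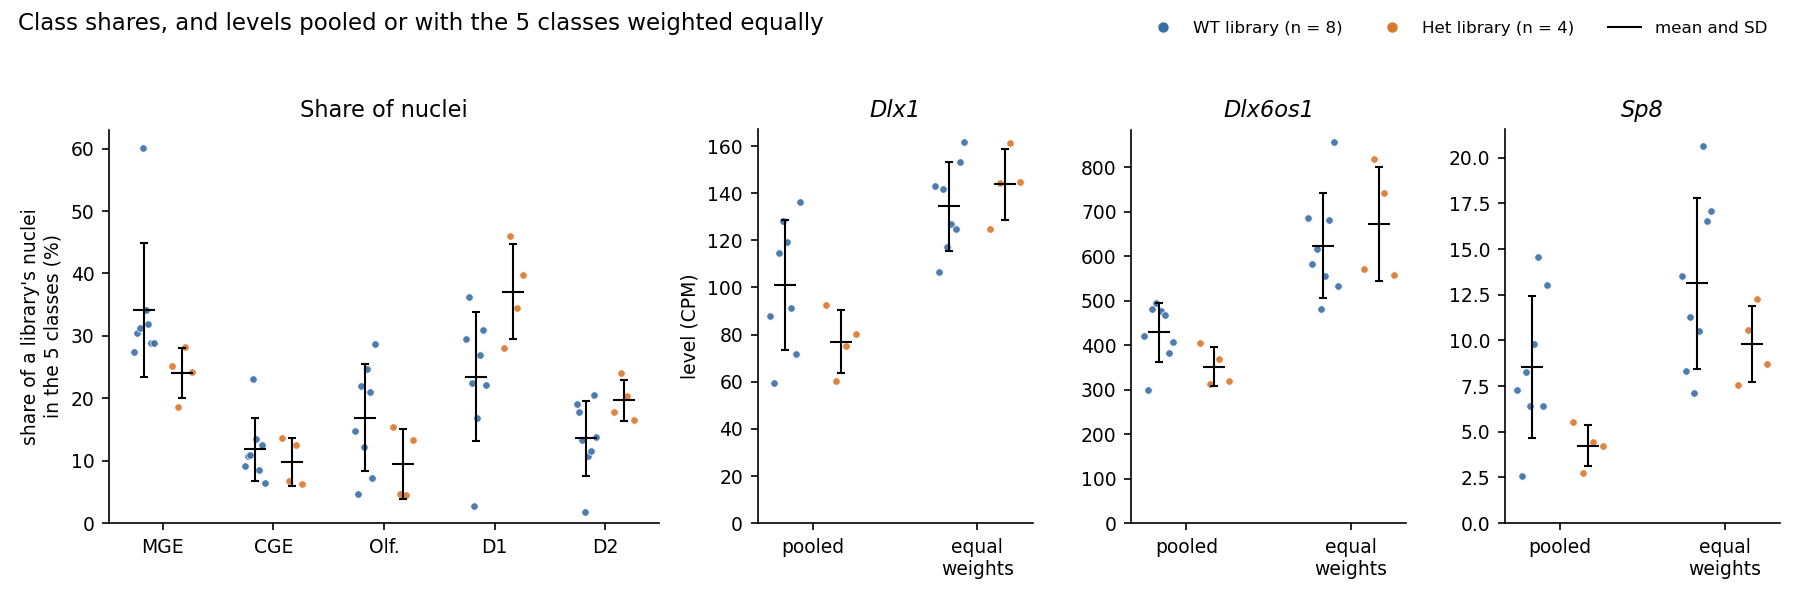
Left, share of each class among the nuclei of the 5 classes (percent); right, levels of Dlx1, Dlx6os1 and Sp8 (CPM, linear axes from 0) with the classes pooled or weighted equally. Points are libraries (WT blue, Het orange) and black bars are the mean and SD; for Dlx1 and Dlx6os1 the Het mean lies below the WT mean when pooled and above it with equal weights, and for Sp8 it lies below in both.

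A test of whether the genotype effect differed between classes called 0 of the 7 members with enough counts, with the smallest p for Sp8 (edgeR adjusted p = 0.99999) and 0 unadjusted p under 0.05. No other tool was run for it, and 0.0% of 9027 genes were called. In excitatory neurons, where 0.0% of genes were called, Dlx1 was higher by 0.70 ± 0.348 in Het on the log2 scale (edgeR adjusted p = 0.450) and Dlx6os1 by 0.32 (edgeR adjusted p = 0.701). These are differences of levels used above as background, and Dlx1 was 8.00 CPM in Het M3 and at most 4.36 CPM in the other Het libraries. Over all nuclei Dlx6 differed by 0.43 ± 0.225 (edgeR adjusted p = 0.531) and Sp8 by -0.35 (edgeR adjusted p = 0.757). None of the 7 members tested there was called, against 0.0% of genes, and none had an unadjusted p under 0.05, which 10.2% of genes had.

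Other genes of the GABAergic programme were followed as 4 lists with 56 genes in all. Of 164 combinations with a class that had enough counts, 0 were called by edgeR or by DESeq2, against 0.0321% and 0.0817% of all combinations, and 23 had an unadjusted p under 0.05, which 5.6% of all combinations had. The MGE-like class held 12 of these, 10 of them higher in Het, where 7.64% of all its genes had such a p, and the median log2 difference of its 40 tested list genes was 0.10, against -0.0022 over all genes of the class. Among 22 tested patterning factors there, 10 had an unadjusted p under 0.05, while 0 of 5 GABA synthesis and transport genes and 0 of 4 other Dlx and Sp family genes did. The smallest p belonged to Ebf1, a factor of D1 projection neurons, at 8.99 ± 5.44 CPM in WT and 28.0 ± 16.5 in Het (log2 difference 1.42 ± 0.340, edgeR adjusted p = 0.109). Foxp1, a striatal factor, followed at 178 CPM in WT and 240 in Het (0.41 ± 0.0999, edgeR adjusted p = 0.111). Ebf1 is itself on the D1 marker list, so the sum of that list in these nuclei, 34.9 CPM in WT and 59.0 in Het, is not separate from it.

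In the CGE-like class the smallest p-values were those of Prox1, a factor of CGE interneurons, at 504 CPM in WT and 600 in Het (log2 difference 0.22 ± 0.102), and of Dlx1as, the antisense partner of Dlx1, at 312 and 373 CPM (0.22 ± 0.109). In the olfactory-like class they were the guidance receptor gene Nrp2 at 105 and 56.0 CPM (-0.68 ± 0.228) and the nuclear receptor gene Nr2f1 at 17.3 and 43.2 CPM (1.01 ± 0.343). In the D1-like class they were Nrp1, at 21.9 CPM in WT and 38.0 in Het (0.70 ± 0.230), and Sp2, with a log2 difference of 0.66 ± 0.250. In the D2-like class they were Ebf1 at 30.6 and 54.8 CPM (0.51 ± 0.218) and Nrp2 at 29.1 and 15.0 CPM (-1.01 ± 0.456). None of these passed the test, with edgeR adjusted p from 0.579 to 0.9999.

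Myt1l itself, the mutated gene, was not lower in Het. It was 1640 ± 121 CPM in WT and 1836 ± 91.0 CPM in Het pooled inhibitory nuclei, a log2 difference of 0.15 ± 0.0803 (edgeR adjusted p = 0.647). In excitatory neurons the difference was 0.29 ± 0.0796 (edgeR adjusted p = 0.291). A frameshift need not change the RNA count, so these values do not check the genotype labels.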

How the data were processed

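Single-nucleus RNA was measured by split-pool barcoding (ScaleBio) in 12 P1 libraries prepared as 1 batch. The authors aligned reads to mm10, called nuclei and deposited expected counts: UMI counts per gene and nucleus in which reads shared between genes were divided, so that values need not be whole. ScaleRna was their counting pipeline, and per the labels Seurat 4.3.0 was used downstream. The total per library in the deposited tables was 15439429 to 40784144 UMIs.

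The filter the study states (UMIs from 800 to 6000, genes from 300 to 3000, mitochondrial share up to 1%, complexity 0.9 or more) left 98076 of 126684 barcodes. Simulated doublets marked 4904, which were removed, leaving 93172. Free RNA was not subtracted. Nuclei were clustered on 3000 variable genes, 50 principal components and 20 neighbours with the Leiden algorithm at resolution 1.5 (leidenalg 0.10.2, Python 3.11.15), without the 8 members, Myt1l and sex-linked genes. This gave 52 clusters, of which 30 were named from markers, with 65.184% of nuclei. The thresholds of the naming (at least 3 raised markers, a lead of 0.2 over the next class) were set after the clusters were seen, and a rebuilt name may differ from the study's.

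Counts were summed per library and class (at least 10 nuclei), rounded to whole numbers, and tested with edgeR 4.0.16 (TMM, filterByExpr, quasi-likelihood, genotype as the only term, R 4.3.3) in each class. The plan had assumed whole counts. DESeq2 1.42.0, other size factors, no filter, sex as a term, males only, a replicate block, other resolutions, a gate on marker UMIs (at least 2), doublets kept and each library left out were the alternatives. A genotype by class interaction was fitted with library as a block. The scripts were tested on simulated data. Levels are CPM per library and class. Limits for 0 counts use 3 counts.

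The members and gene lists were chosen with earlier results of these data known. Named genes were the members, Myt1l, list genes called, the 2 list genes of smallest p in each class, and the 3 genes most like each member. The versioned gene identifiers matched GENCODE M21 for 54587 of 55335 rows, which gave the positions.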

Additional observations from a re-analysis of the deposited data

Results flagged for a closer look

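In 68 groups of 4 to 8 libraries, each 1 member in 1 class and genotype, 7 held a library far from the others by Dixon's test, where chance gives about 1 in 20. In MGE-like nuclei, Dlx1 in WT F3 was 107 CPM, with the next WT library at 80.8 CPM. Dlx2 there was 4.41 CPM in WT F1, with the next WT library at 11.03 CPM. Dlx6os1 was 232 CPM in Het M1, with the next Het library at 275 CPM. Dlx6 was 8.54 CPM in Het M3, with the next at 12.4 CPM. In olfactory-like nuclei Dlx6os1 was 2273 CPM in WT F2, with the next WT library at 1194 CPM. In pooled inhibitory nuclei Sp9 was 11.9 CPM in WT M4, with the next WT library at 24.0 CPM, and this library held 10 D2-like nuclei. In excitatory neurons Dlx1 was 8.00 CPM in Het M3, with the next Het library at 4.36 CPM.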

How the results depend on the processing

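No member was called in any class under DESeq2, other size factors, no filter, sex as a term, males only, the replicate block, other resolutions, the marker gate, doublets kept or any left-out library (0 to 0). In pooled inhibitory nuclei 1 member, Sp8, was called with no filter on low counts, and DESeq2 gave no adjusted p for it. Of the list genes, 11 were called with no filter, 1 with males only (Erbb4 in the D1-like class), 2 with the marker gate (Erbb4 and Zfhx3 in the MGE-like class), and 0 to 2 with 1 library left out, where all combinations called numbered 167 of 131315, 19 of 33965, 58 of 29609 and 0 to 26 (Ebf1 and Foxp1 in the MGE-like class without Het M1, Ebf1 without WT M1). The number of members highest in the olfactory-like class was 4, and 2 with the marker gate (Dlx5, and Gsx2 at 0.31 CPM). It was 3 on a log2 scale (Dlx6, Sp8 and Sp9), 3 with males only, and 3 to 5 with 1 library left out (3 without WT F2 or Het M2, 5 without WT F3), so the members counted changed with the setting. Equal class weights gave 0.098 for Dlx1 and 0.11 for Dlx6os1 in pooled inhibitory nuclei.

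Of 720 values of members under alternatives, 81 had another sign than the reported one, and neither was called. Of the 15 reported values of at least 0.2 in size, 5 such changes occurred. With the marker gate, Dlx1 in the MGE-like class was -0.043, and Dlx6os1 was -0.14 in the MGE-like, -0.16 in the CGE-like, -0.54 in the olfactory-like, 0.52 in the D1-like and 0.099 in the D2-like class. At resolution 0.8, Dlx6 in the MGE-like class was -0.060, Sp9 there -0.063, and Dlx6os1 -0.062 in the MGE-like, -0.21 in the olfactory-like and 0.32 in the D1-like class. At that resolution the cluster led by Lhx8, Sfta3-ps and St18 was named cholinergic-like and was not in the MGE-like class. At 2.5, Dlx5 in pooled inhibitory nuclei was 0.019. With no filter, Dlx6os1 was -0.035 in the olfactory-like, 0.0048 in the D1-like and 0.025 in the D2-like class. With sex as a term, Dlx6os1 was 0.0055 in the D1-like and 0.0011 in the D2-like class, and Dlx5 0.014 in pooled inhibitory nuclei. With males only, Dlx1 was -0.041 and Dlx2 -0.088 over all nuclei, Dlx5 0.085 and Sp9 0.051 in pooled inhibitory nuclei, and Dlx6os1 0.014 in the D2-like class. With doublets kept, Dlx5 in pooled inhibitory nuclei was 0.011 and Dlx6os1 in the olfactory-like class -0.0018. The cause of these changes was not tested.

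The replicate numbers are those of the sample titles, and the deposited files carry other numbers, so what a number marks is in doubt. Deviations of same-numbered WT and Het libraries correlated at -0.049, 0.13, -0.0048 and 0.22, and not every library correlated best with its own number. So few pairs cannot decide whether the numbers pair the samples, and the main test did not pair them. The replicate block kept only numbers found in both genotypes, so it used 4 WT and 4 Het libraries. Its values therefore differ from the main ones in the WT libraries used as well as in the block. Dlx1 in the olfactory-like class was then 0.14, and Dlx2 was 0.068 there and 0.040 in pooled inhibitory nuclei. Dlx5 was 0.11 in pooled inhibitory nuclei, and Dlx6os1 was -0.020 in the MGE-like and -0.0045 in the olfactory-like class.

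With 1 library left out, Dlx1 ranged from -0.045 to 0.13 over all nuclei, -0.21 to 0.090 in the D2-like and -0.22 to 0.064 in the olfactory-like class. Dlx2 ranged from -0.064 to 0.14 and Dlx5 from -0.13 to 0.078 over all nuclei, and Dlx5 from -0.21 to 0.14 in pooled inhibitory nuclei. Dlx6 in the D1-like class ranged from -0.056 to 0.31. Dlx6os1 ranged from -0.14 to 0.13 in the D1-like, -0.096 to 0.038 in the D2-like and -0.20 to 0.25 in the olfactory-like class. Sp9 ranged from -0.18 to 0.017 in the D2-like, -0.11 to 0.022 in pooled inhibitory, -0.069 to 0.42 in the MGE-like and -0.32 to 0.24 in the olfactory-like class.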
